A study of Mus musculus with 3 samples.

Results

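The genes described here encode enzymes and complex subunits that write, erase or read out histone marks or move nucleosomes. They were chosen by symbol alone: genes named Kmt, Kdm or Arid with a number, Chd or Hdac with a number and nothing after it, or Setd or Smarc with any ending, without Kdm5d. The rule found 77 of the 32531 gene rows. Of these, 76 are protein-coding and fall into 11 classes by family, and the other is the pseudogene Smarca5-ps, which had 0, 0 and 1 counts. Setd8, the older symbol of Kmt5a, is a member. Kmt5b and Kmt5c are listed under older symbols that the rule does not match, and were not used as members.

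The RNA came from the deep nuclei through which the cerebellum sends its output, taken from adult C57BL/6J mice of the Htr6-TRAP line NIDA113. In this line an EGFP-tagged ribosomal protein, Rpl10a, is made under a transgene named for the serotonin receptor gene Htr6, and tagged polysomes were pulled down with antibodies against EGFP. All 3 libraries are such immunopurified samples of 1 group (replicates 1, 2 and 3, with 7695397, 8842058 and 7622010 gene counts). There is therefore no contrast of conditions: comparisons are between genes within a library, and the spread between libraries is the error. The labels do not say whether libraries came from separate animals, so this spread, and every p-value below, may reflect technical variation between these samples. Levels are abundances in the purified RNA, since RNA from whole tissue was not analysed here. In bulk RNA of this kind, fewer cells that express a gene and less RNA per cell cannot be told apart.

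Histone methyltransferases of the Kmt and Setd families add methyl groups to lysines, and Kdm enzymes of the amine oxidase and JmjC types remove them, so that promoters, enhancers and gene bodies carry different marks. Histone deacetylases (Hdac) take acetyl groups off histones, mostly as catalytic subunits of corepressor complexes. Chd and Smarca proteins are ATPases that slide, space or evict nucleosomes. Other Smarc proteins and some of the Arid proteins are subunits of such machines, above all of the BAF complex. Many of these genes are required in developing neurons and remain expressed in mature ones, and loss of a single copy of several of them causes neurodevelopmental disorders in people.

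The promoters of the members were mostly rich in CpG, the dinucleotide at which DNA is methylated and which CXXC domain proteins such as Kmt2a and Kdm2a bind when it is unmethylated. RefSeq promoter windows of 300 bases (250 before to 50 after a start; build GRCm38.p6) were matched to 56 of the 77 members, which have 73 windows. The ratio of observed to expected CpG was at least 0.6 in 61 of 73 windows (83.6%), against 67.8% of 12321 windows of protein-coding genes whose counts summed to at least 10 and 17.2% of 6606 windows of protein-coding genes with fewer. Below, 4 windows are printed 5′ to 3′ on the strand of the gene, with CpG in capitals: those of Setd7, Kmt2a and Smarca2, which stand among the 5 members of highest level, and that of Arid3c, the member with no count in any library. They lie at chr3:51560774-51561073 (minus strand, Setd7), chr9:44881240-44881539 (minus strand, Kmt2a), chr19:26604910-26605209 (plus strand, Smarca2) and chr4:41731093-41731392 (minus strand, Arid3c).
Setd7: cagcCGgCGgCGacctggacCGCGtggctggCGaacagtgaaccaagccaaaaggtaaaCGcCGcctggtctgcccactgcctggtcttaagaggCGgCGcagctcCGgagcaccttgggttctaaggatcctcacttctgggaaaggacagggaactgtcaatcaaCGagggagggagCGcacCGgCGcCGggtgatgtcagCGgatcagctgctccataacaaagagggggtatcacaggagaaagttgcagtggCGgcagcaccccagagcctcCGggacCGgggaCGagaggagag
Kmt2a: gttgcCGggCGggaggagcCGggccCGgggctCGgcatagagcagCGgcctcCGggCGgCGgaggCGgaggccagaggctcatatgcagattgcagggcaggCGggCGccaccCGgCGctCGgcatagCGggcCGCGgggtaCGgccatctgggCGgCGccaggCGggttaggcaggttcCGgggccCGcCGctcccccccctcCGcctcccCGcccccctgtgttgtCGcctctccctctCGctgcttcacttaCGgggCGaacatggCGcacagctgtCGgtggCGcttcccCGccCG
Smarca2: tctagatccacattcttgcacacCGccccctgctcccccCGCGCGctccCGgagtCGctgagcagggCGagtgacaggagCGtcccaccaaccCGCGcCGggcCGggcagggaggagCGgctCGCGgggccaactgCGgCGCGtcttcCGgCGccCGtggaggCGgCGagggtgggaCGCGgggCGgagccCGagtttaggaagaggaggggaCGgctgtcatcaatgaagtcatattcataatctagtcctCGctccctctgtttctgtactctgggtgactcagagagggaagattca
Arid3c: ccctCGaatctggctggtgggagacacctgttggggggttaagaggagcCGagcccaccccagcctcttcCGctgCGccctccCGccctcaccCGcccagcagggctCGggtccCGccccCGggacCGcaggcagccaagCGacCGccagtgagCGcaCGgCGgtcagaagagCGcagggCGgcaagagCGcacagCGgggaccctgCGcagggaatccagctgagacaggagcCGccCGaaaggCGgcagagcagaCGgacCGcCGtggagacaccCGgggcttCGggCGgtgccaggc
The windows hold 21, 36, 29 and 29 CpG in the order printed, with CpG ratios of 0.725, 0.839, 0.900 and 0.732. The window of the uncounted Arid3c was thus no poorer in CpG than that of Setd7, the member of highest level. Short motifs were searched on both strands of every member window. The GC box GGGCGG was found in 68.5% of the member windows and in 61.6% of the windows of protein-coding genes with at least 10 counts. The corresponding shares were 38.4% and 37.3% for CCAAT, 13.7% and 15.7% for the ETS motif CCGGAAG, 17.8% and 13.3% for the NRF1 motif core TGCGCA, 5.48% and 6.94% for TATAAA, and 4.11% and 9.69% for the E-box CACGTG. A match describes the letters of a window and is not evidence of binding.

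Most members were expressed, and a few were counted hardly at all. At least 10 CPM (gene counts scaled to the TMM effective library size), averaged over the libraries, was reached by 63 of the 77 members (81.8%), beside 38.3% of all 20418 protein-coding genes and 62.9% of the 12430 with at least 10 counts summed. At least 10 counts in every library were found for 65 members (84.4%), beside 42.1% and 69.1% of these 2 sets of protein-coding genes. A level of 100 CPM was reached by 33 members (42.9%), beside 9.95% and 16.3%. Together the members took 1.47%, 1.55% and 1.47% of the gene counts of replicates 1, 2 and 3. To compare genes, levels are given below as RPKM (CPM per kilobase of annotated exon), as mean ± SD over n = 3 libraries. The median over all 77 members was 10.4 RPKM, beside 0.796 RPKM over all 20418 protein-coding genes. Among genes with at least 10 counts summed it was 11.4 RPKM for 73 members and 4.08 RPKM for the 12430 protein-coding genes. In 8 members (10.4%) at least 1 library had a count of 0, beside 49.3% of all protein-coding genes. Among genes with at least 10 counts summed the shares were 5.48% of members and 17.1% of protein-coding genes. The limit that a 0 sets (3 counts, for counting error alone) was 0.397, 0.340 and 0.385 CPM in replicates 1, 2 and 3.

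Levels ranged widely within nearly every class, as the plot of all members by class shows. By class median the CHD remodelers stood highest at 17.3 RPKM (9 genes), followed by the H3K4 methyltransferases at 16.2 (7 genes) and the other SET domain genes at 15.0 (9 genes). This order depends on the length taken. With lengths of the longest coding transcript the other SET domain genes had a median of 32.9 RPKM and the CHD remodelers 27.3. The H3K4 methyltransferases then had a median of 16.3 RPKM and the JmjC demethylases 14.2. The middle genes of the ARID class were then at 17.2 and 17.7 RPKM, both above the H3K4 median. Those of the SMARC ATPases were at 8.76 and 26.5 RPKM, and those of the class I HDACs at 10.5 and 17.3. With annotated exon lengths the SMARC ATPases had a median of 11.2 RPKM (6 genes), the JmjC demethylases 10.4 (15 genes) and the ARID genes 9.34 (10 genes). Lower medians were those of the class I HDACs at 6.58 RPKM (4 genes), the SMARC core and accessory subunits at 3.33 (7 genes), the KDM1 amine oxidase demethylases at 3.30 (2 genes), the class IIb and IV HDACs at 3.05 (3 genes) and the class IIa HDACs at 2.50 (4 genes). No deacetylase and no amine oxidase demethylase was among the 10 highest members by mean RPKM, or among the 10 highest by CPM in any library.

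**Figure D1:**
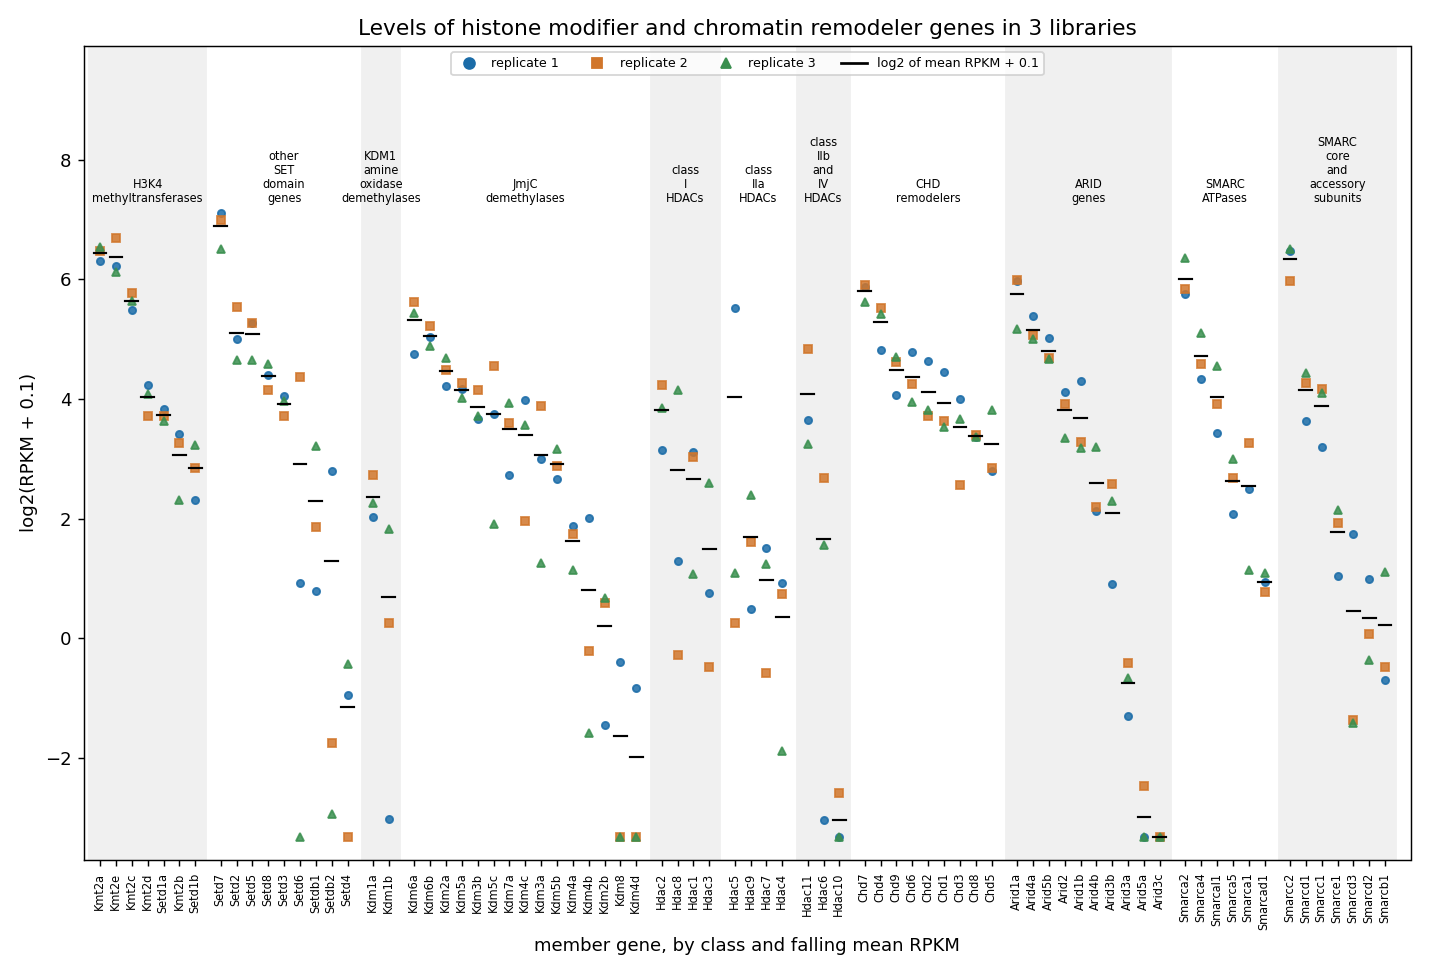
Level of each of the 76 classed members in each library, as log2(RPKM + 0.1), with genes grouped by class along the horizontal axis and ordered by falling mean; symbols mark replicates 1 to 3 and bars the log2 of the mean RPKM + 0.1. Setd7, Kmt2a and Kmt2e have the highest means (119, 87.1 and 82.7 RPKM), and the points of Hdac5, Setd6 and Setdb2 lie far apart.

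In the class of H3K4 methyltransferases, named for a mark found at promoters and enhancers, Kmt2a, Kmt2e and Kmt2c stood highest. Kmt2a, the MLL protein that keeps Hox and other promoters active, was at 79, 89.2 and 93.1 RPKM in replicates 1, 2 and 3 (87.1 ± 7.28, SD, n = 3). It is ENSMUSG00000002028.13, on the minus strand of chromosome 9 at positions 44803355 to 44881296 in mm10, with 36 exons in its longest coding transcript. Kmt2e, a SET domain and PHD finger protein classed here by its naming family rather than by activity, was at 74.3, 104 and 70.0 RPKM. Kmt2c, which with Kmt2d deposits monomethylation at enhancers, was at 44.6, 54.3 and 49.8 RPKM. The libraries lay close together for all of these, with the highest 1.18-fold above the lowest for Kmt2a, 1.48-fold for Kmt2e and 1.22-fold for Kmt2c.

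Their paralogs were lower in every library. Kmt2b, the closest relative of Kmt2a, was at 10.6, 9.52 and 4.85 RPKM, and Kmt2a exceeded it by 3.45 ± 0.70 (SD, n = 3) on the log2(RPKM + 0.1) scale, or 10.9-fold. Kmt2d was at 18.8, 13.1 and 16.8 RPKM, below Kmt2c by 3.07-fold (1.62 ± 0.40 log2). Setd1a and Setd1b, the catalytic subunits of the COMPASS complexes that trimethylate promoters, were at 14.1, 13.0 and 12.3 RPKM and at 4.86, 7.09 and 9.32 RPKM. Setd1b, the lowest gene of its class by this measure, was below Setd1a in 3 of 3 libraries (-0.93 ± 0.56 log2), but the mean difference was -0.11 on CPM, with mixed signs. With coding transcript lengths Kmt2b was the lowest, at 9.42 RPKM against 9.66 for Setd1b. For Setd1a, 54.0% of the 50-base words of its coding transcript also occur in another annotated gene, and 51.8% of its exon length overlaps a gene on the same strand, so its count is uncertain. All 7 genes of this class reached 10 CPM.

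Setd7 had the highest level of all 77 members. It encodes a lysine methyltransferase that monomethylates H3K4 in vitro and many non-histone proteins, and was at 139, 127 and 90.4 RPKM (119 ± 25.2), lowest in replicate 3. The gene, ENSMUSG00000037111.9, lies on the minus strand of chromosome 3 at positions 51515319 to 51560879 in mm10, with 8 exons in its longest coding transcript, and coding sequence makes up 10.2% of its annotated exon length of 10813 bases. It also ranked first when the length of the longest coding transcript (7411 bases) was used.

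Next among the other SET domain genes were Setd2, the enzyme of H3K36 trimethylation in transcribed gene bodies, and Setd5, a gene mutated in intellectual disability. Setd2 was at 32.0, 46.1 and 25.1 RPKM and Setd5 at 38.7, 38.4 and 25.1 RPKM, both lowest in replicate 3. The class also held members that differed strongly between libraries. Setd6, a methyltransferase of the NF-kB subunit RelA, had 26, 344 and 0 counts, and is the only member with 0 counts in a library and at least 50 in another, which 1127 of all gene rows show. Setdb2, an H3K9 methyltransferase relative, had 209, 7 and 1 counts, highest in replicate 1, whereas Setdb1, which silences retroelements, had 85, 214 and 491 counts, highest in replicate 3. The difference between Setdb1 and Setdb2 accordingly had no common sign (2.59 ± 4.16 log2). Setd4, the lowest gene of the class, had 17, 0 and 27 counts.

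Of the demethylases among the members, the H3K27 demethylases Kdm6a and Kdm6b had the highest mean RPKM. Kdm6a (Utx), an X-linked subunit of the Kmt2c and Kmt2d complexes, was at 26.8, 49.1 and 43.5 RPKM, and Kdm6b (Jmjd3), an inducible enzyme, at 32.6, 37.4 and 29.5 RPKM. The order of the pair changed between libraries, and the mean difference (Kdm6b minus Kdm6a, -0.22 ± 0.45 log2) was within its SD. Kdm2a, a CpG-binding H3K36 demethylase, followed at 18.5, 22.4 and 25.6 RPKM. Its paralog Kdm2b, which recruits a Polycomb complex to CpG islands, was at 0.268, 1.40 and 1.5 RPKM. Kdm2a was higher in 3 of 3 libraries, by 23.0-fold (4.52 ± 0.98 log2), although 12.5% of the 50-base words of Kdm2b also occur elsewhere and reads there may not have been counted.

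The pairs of H3K9 and H3K4 demethylases that were compared had lower means than Kdm6a and Kdm6b. Kdm5a, an H3K4 demethylase outside these pairs, was at 17.8, 19.2 and 16.1 RPKM. Kdm3b and Kdm3a, both H3K9 demethylases, were at 12.6, 17.7 and 13.1 RPKM and at 7.92, 14.6 and 2.29 RPKM. Kdm3b was the higher in 3 of 3 libraries, but the mean of 1.14 log2 was within the SD of 1.16. Reads of Kdm3b may include some of another gene, since 24.6% of its exon length overlaps exons on the opposite strand, against 0% for Kdm3a. Kdm5c, an X-linked H3K4 demethylase and intellectual disability gene, was at 13.3, 23.3 and 3.66 RPKM, against 6.25, 7.26 and 8.90 RPKM for Kdm5b. Kdm5c thus lay above Kdm5b in replicates 1 and 2 and below it in replicate 3 (0.50 ± 1.55 log2). The sign of that mean turned to -0.72 on CPM, to -0.15 with coding transcript lengths and to -0.090 without replicate 2. At the low end, Kdm4d, an H3K9 demethylase known from testis, had 10, 0 and 0 counts, and 12 of the 15 JmjC genes reached 10 CPM.

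The amine oxidase demethylases were represented by Kdm1a (Lsd1), the H3K4 demethylase of the CoREST complex, at 3.99, 6.53 and 4.71 RPKM. Its paralog Kdm1b had 1, 53 and 147 counts in replicates 1, 2 and 3. Kdm1a was the higher in each library (2.65 ± 2.30 log2), by 5.04 in replicate 1 and by 0.44 in replicate 3.

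Most deacetylases had a mean below the member median of 10.4 RPKM, apart from Hdac11 (16.8), Hdac5 (16.3) and Hdac2 (14.0). Many were uneven between libraries, and so were other genes of such counts. Over all genes, the median coefficient of variation (SD over mean CPM) was 71.0% at 10 to 30 CPM and 46.5% at 30 to 100 CPM. In class I, the subunits of NuRD, Sin3, CoREST and NCoR complexes, Hdac2 was at 8.76, 18.8 and 14.3 RPKM and Hdac1 at 8.57, 8.10 and 2.01 RPKM. The pair was level in replicate 1 (0.03 log2), and the mean difference of 1.34 did not exceed its SD of 1.38. Of the 50-base words of Hdac1, 58.7% also occur in other annotated genes, so its count may be too low. Hdac8, an X-linked enzyme that acts on cohesin, had 86, 31 and 669 counts, and Hdac3, the NCoR deacetylase and the lowest of the class, had 49, 22 and 188. Both were highest in replicate 3.

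Hdac5 gave the widest spread of any member above 100 CPM. This class IIa deacetylase, which shuttles out of the nucleus with neuronal activity, was at 45.7, 1.10 and 2.05 RPKM (16.3 ± 25.5), from 3028, 85 and 140 counts. Replicate 1 alone held the high value, 41.6-fold above the lowest library. It lies on the minus strand of chromosome 11 at positions 102194432 to 102230166 in mm10 (ENSMUSG00000008855.17). Hdac4, its class neighbour and the lowest of the 4 genes, was at 1.80, 1.57 and 0.170 RPKM, below Hdac5 in replicates 1 and 3 and above it in replicate 2 (Hdac5 minus Hdac4, 2.37 ± 2.59 log2). Of the exon length of Hdac4, 22.4% overlaps exons on the opposite strand, so its reads may include some of another gene. Hdac9 was at 1.31, 2.94 and 5.16 RPKM and Hdac7 at 2.76, 0.571 and 2.26 RPKM. Apart from Hdac5 in replicate 1, no class IIa gene exceeded 5.16 RPKM in any library.

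Hdac11, the sole class IV deacetylase and a gene known from neurons and oligodendrocytes, had the highest mean RPKM of the deacetylases, at 12.4, 28.6 and 9.40 (16.8 ± 10.3). With coding transcript lengths Hdac5 (33.5 RPKM) and Hdac2 (31.2) were above Hdac11 (24.4). Reads there may include some of other genes, since 17.9% of its exon length overlaps exons on the opposite strand. Hdac6, the X-linked tubulin deacetylase, had 1, 322 and 129 counts, and Hdac10, a polyamine deacetylase, had 0, 2 and 0.

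All 9 CHD genes reached 10 CPM, and Chd7 led them. Chd7, the CHARGE syndrome remodeler that acts at enhancers and is needed in cerebellar granule cell precursors, was at 58.2, 59.9 and 48.9 RPKM (55.7 ± 5.92). Chd8, its relative and an autism gene, was at 10.2, 10.4 and 10.2 RPKM, the smallest spread of any member. Chd7 exceeded Chd8 by 5.35-fold (Chd8 minus Chd7, -2.42 ± 0.15 log2), with the libraries between -2.51 and -2.25. Chd9, a less studied relative, was at 16.7, 24.5 and 26 RPKM.

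Of the NuRD ATPases, Chd4 was the highest in every library. Chd4 was at 28.1, 45.7 and 42.5 RPKM, Chd3 at 15.8, 5.83 and 12.6 RPKM, and the neuronally enriched Chd5, the lowest gene of the class, at 6.89, 7.11 and 14.1 RPKM. Chd3 was below Chd4 by 3.58-fold (-1.84 ± 1.07 log2) and Chd5 by 4.26-fold (-2.09 ± 0.54 log2), each in 3 of 3 libraries. Chd3 and Chd5 themselves changed order: Chd3 was the higher in replicate 1 and Chd5 in replicates 2 and 3.

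The ARID genes ranged from Arid1a to the uncounted Arid3c. Arid1a, the DNA-binding subunit that defines canonical BAF, was at 62.4, 63.5 and 35.7 RPKM (53.9 ± 15.7), lowest in replicate 3. Its alternative Arid1b, the gene most often mutated in Coffin-Siris syndrome, was at 19.6, 9.62 and 9.00 RPKM, below Arid1a by 4.34-fold (-2.12 ± 0.54 log2). Arid4a, a retinoblastoma-binding subunit of Sin3 complexes, was at 41.7, 33.4 and 31.9 RPKM, and Arid5b, the DNA-binding partner of the demethylase Phf2, at 32.5, 25.8 and 25.4 RPKM. Arid5a, with 0, 9 and 0 counts, and Arid3a, with 13, 32 and 23, were the other members of this class far below 10 CPM.

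The BAF ATPases differed by a nearly constant amount. Smarca2 (Brm) was at 53.7, 57.1 and 82.2 RPKM and Smarca4 (Brg1), the ATPase of embryonic and progenitor BAF, at 20.1, 23.9 and 34.4 RPKM, both highest in replicate 3. The difference was 1.42, 1.25 and 1.26 log2 in replicates 1, 2 and 3 (1.31 ± 0.09), or 2.48-fold, the smallest SD of the 21 pairs tested. With coding transcript lengths the difference was 2.57 log2, so the direction held and the size depends on the length taken: the annotated exons of Smarca2 cover 14269 bases and its longest coding transcript 5862. Smarcal1, which anneals DNA at stalled forks, was at 10.7, 15.0 and 23.3 RPKM, and Smarcad1, a heterochromatin remodeler, at 1.82, 1.62 and 2.03 RPKM.

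For the ISWI ATPases Smarca5 (Snf2h) and Smarca1 (Snf2l), levels were 4.10, 6.33 and 7.89 RPKM and 5.56, 9.48 and 2.10 RPKM. Smarca5 was the lower in replicates 1 and 2 and the higher in replicate 3 (0.29 ± 1.37 log2), and the mean turned to -0.50 without replicate 3. Words of 50 bases shared with other genes made up 35.3% of the Smarca5 transcript, so its count may be too low.

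Among the core and accessory subunits, Smarcc2 stood far above the rest. This scaffold subunit of BAF, enriched in neurons, was at 88.5, 62.4 and 90.6 RPKM (80.5 ± 15.7), against 9.13, 17.9 and 17.0 RPKM for its paralog Smarcc1. Smarcc2 was higher in 3 of 3 libraries by 5.61-fold (2.49 ± 0.74 log2). Smarcd1, the next subunit by level, was at 12.3, 19.2 and 21.4 RPKM. Smarcb1 (Snf5), a BAF subunit, was the lowest of the 7 at 0.518, 0.615 and 2.07 RPKM, from 31, 43 and 128 counts. That rank depends on the length taken: with coding transcript lengths the mean of Smarcb1 was 5.10 RPKM, against 1.53 for Smarcd2 and 3.76 for Smarcd3. RNA levels of subunits that share a complex were thus far apart.

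Neurons are known to exchange subunits of BAF as they leave the cell cycle: Actl6a for Actl6b, Ss18 for Ss18l1, and Phf10 for Dpf1 or Dpf3. Of these partners, Actl6a had 8, 14 and 50 counts and Actl6b 1, 0 and 79, so that Actl6b was the higher only in replicate 3 (-1.12 ± 1.46 log2). Ss18l1 was at 7.10, 11.6 and 6.97 RPKM and Ss18 at 4.64, 0.952 and 3.69 RPKM. The difference (Ss18l1 minus Ss18) was 1.66 ± 1.58 log2 and 0.10 with coding transcript lengths. Dpf1 had 28, 83 and 13 counts and was below Dpf2, its broadly expressed relative with 1517, 504 and 501 counts, in 3 of 3 libraries (-4.05 ± 1.59 log2). Phf10 had 93, 128 and 81 counts, and Dpf3 had 15, 50 and 606, so that Dpf3 was above Dpf2 in replicate 3 (18.4 against 9.89 RPKM).

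In all, 21 pairs of related genes were compared within libraries by an exact permutation test that flips the signs of the differences, two-sided. The sign was the same in all 3 libraries for 15 pairs and mixed for 6, and for 8 pairs the mean did not exceed the SD. With 3 libraries the smallest p this test allows is 0.25, which is what each of the 15 pairs of a common sign had (0.35 after Benjamini-Hochberg adjustment over the 21 pairs), so none could pass a threshold of 0.05.

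**Figure D2:**
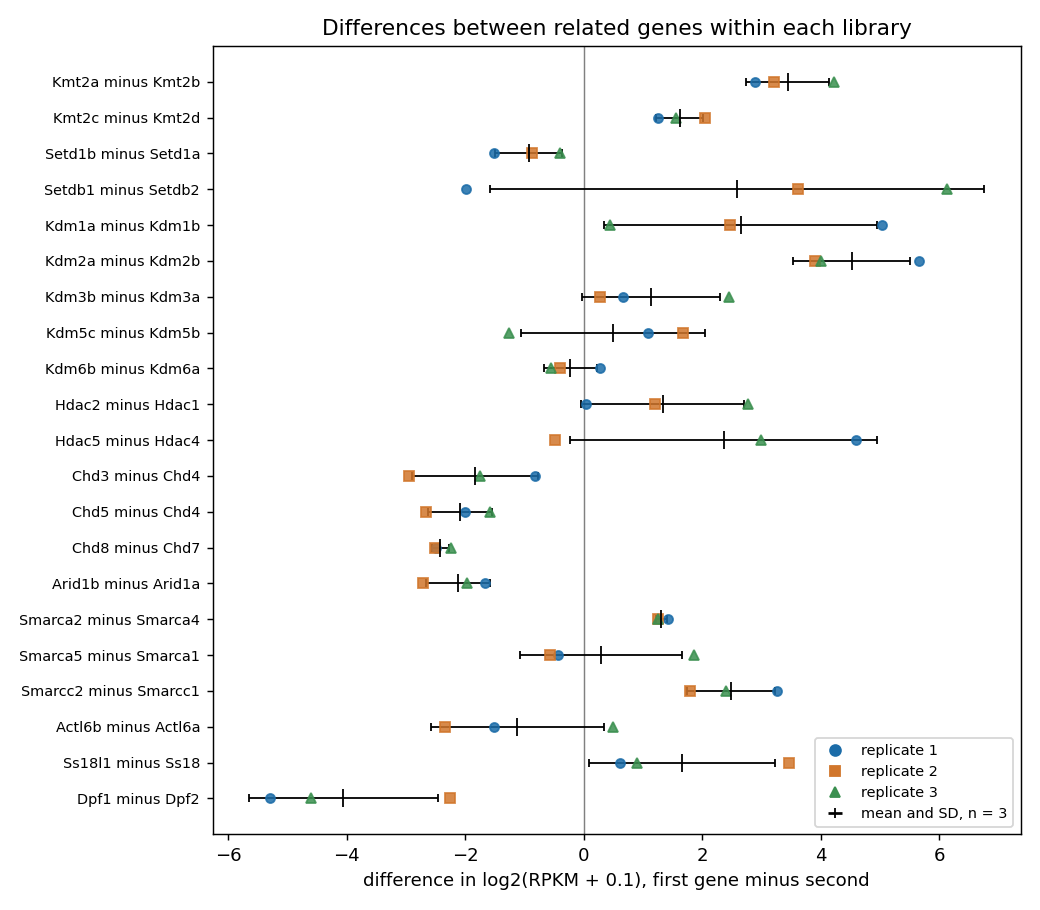
Difference in log2(RPKM + 0.1) between the genes of each of the 21 pairs, the gene named first minus the other, in each library (symbols), with the mean and SD over n = 3 libraries (bars). The points of Smarca2 minus Smarca4 and Chd8 minus Chd7 lie close together, while those of Setdb1 minus Setdb2 and Hdac5 minus Hdac4 fall on both sides of 0.

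In terms of reads rather than levels, a few large genes dominated. In every library 8 members were among the 10 of highest CPM: Setd7, Kmt2a, Kmt2c, Kmt2e, Chd7, Smarca2, Arid1a and Setd5. The remaining places were taken by Chd6, a relative of Chd7 at 27.4, 19.0 and 15.3 RPKM, by Smarcc2, by Chd9 and by Setd2. The 10 highest held 56.6%, 59.0% and 56.5% of the members' CPM in replicates 1, 2 and 3. Setd7 ranked first in replicate 1 with 1500 CPM, and Kmt2a in replicates 2 and 3 with 1487 and 1551 CPM.

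Exon length moved with these ranks. Across the 77 members, annotated exon length and mean CPM had a Spearman rho of 0.68, and exon length and mean RPKM one of 0.45, against 0.41 and 0.07 over the 12430 protein-coding genes with at least 10 counts. These are correlations across genes of the same libraries and are given as a description. The median exon length was 7930 bases over the members and 4804 over those protein-coding genes. Of the 10 highest members by RPKM, 8 were also among the 10 highest by CPM, and 8 remained when coding transcript lengths replaced annotated exon lengths.

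By summed reads, the H3K4 methyltransferases were the largest class. The H3K4 methyltransferases took 3628, 4198 and 3872 summed CPM in replicates 1, 2 and 3, which is 24.2%, 27.0% and 27.0% of the members' CPM. Kmt2e, classed here by its naming family, held 776, 1084 and 731 of these CPM. The CHD remodelers took 2849, 2705 and 2619 CPM. The SMARC ATPases took 1047, 1185 and 1631 CPM, highest in replicate 3, and the other SET domain genes 2809, 2810 and 1995 CPM, lowest there. The 4 smallest classes differed by more than 2-fold between libraries. The class IIa HDACs took 467, 81.5 and 112 CPM, where Hdac5 in replicate 1 made up most of the total (401 CPM). The class I HDACs took 86.6, 118 and 181 CPM, the class IIb and IV HDACs 47.8, 147 and 52.7 CPM, and the KDM1 demethylases 20.8, 39.8 and 43.2 CPM.

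**Figure D3:**
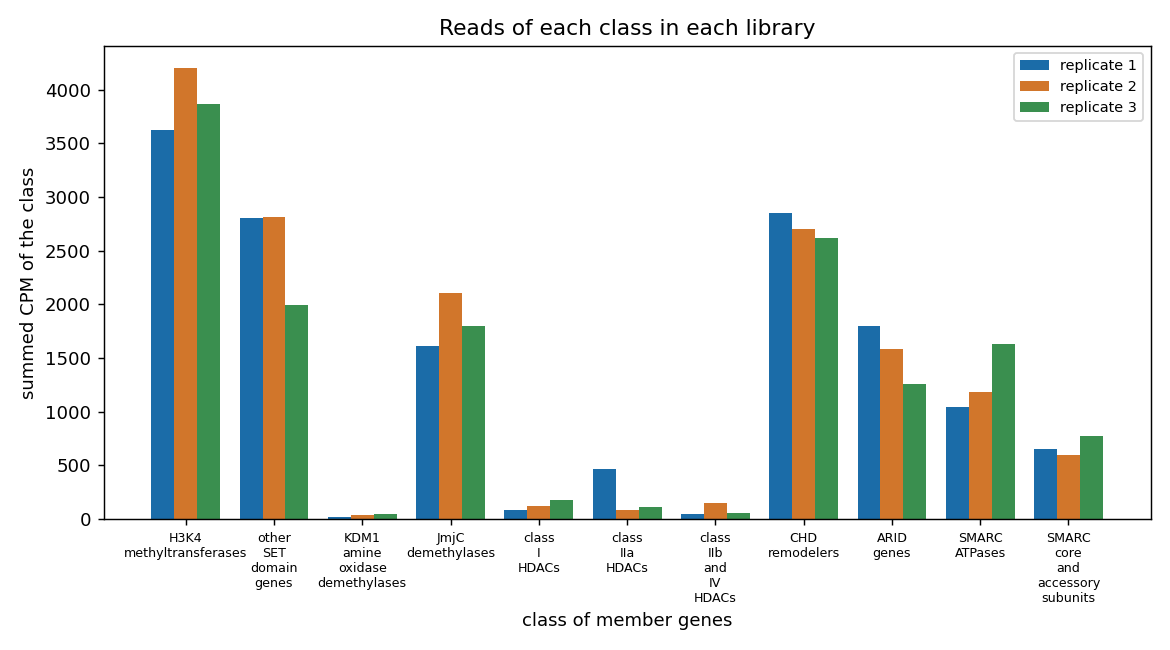
Summed CPM of the members of each class (bars from 0) in replicates 1, 2 and 3. H3K4 methyltransferases, CHD remodelers and other SET domain genes hold the tallest bars, and the class IIa HDAC bar of replicate 1 (467 CPM) stands above those of replicates 2 and 3 (81.5 and 112 CPM).

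Nearly every member varied between libraries beyond counting error, and so did nearly every gene. A Poisson chi-square test over the 3 libraries, Benjamini-Hochberg adjusted over all genes with at least 10 counts in 2 libraries, called 67 of the 70 members tested (95.7%), beside 96.5% of the 11168 genes tested (10773 called). The members' share was near this background and is no result about them. Chd8 (adjusted p = 0.802 by this test), Smarcad1 (0.0766) and Arid3a (0.0711) were the 3 members tested and not called. Chd8 had 1274, 1519 and 1315 counts, which are 1.02-fold apart from highest to lowest as CPM. When each gene's dispersion was set against the trend over genes with edgeR's quasi-likelihood method, 0 of 70 members and 0% of the genes were called, and 4 members and 477 genes had an unadjusted p under 0.05. Whether this method could call a gene at the spread of these libraries was not checked.

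The size of the spread fell with level, for members as for other genes. Between 10 and 30 CPM the median coefficient of variation (CV, SD over mean CPM) was 61.6% for 11 members and 71.0% for 3134 genes. Between 100 and 300 CPM it was 25.8% for 17 members and 29.6% for 1438 genes, and between 300 and 1000 CPM 22.9% for 13 members and 19.1% for 515 genes. Hdac5, with a CV of 156%, lay farthest above its band, and Chd8, with 1.25%, is in the same band. Of the 63 members at 10 CPM or more, 37 stayed within 2-fold between the highest and the lowest library, 21 differed by 2- to 10-fold, and 5 (Setd6, Hdac4, Hdac5, Hdac6 and Hdac8) differed by more or had a 0. The same counts over all genes are not given here, so these counts are no result about the members. The highest value fell in replicate 1 for 20 of the 63, in replicate 2 for 21 and in replicate 3 for 22, so no library was high throughout. The lowest value was less evenly spread, with 27 members in replicate 1, 12 in replicate 2 and 24 in replicate 3. These splits are not given here over all genes either, so they too are no result about the members.

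**Figure D4:**
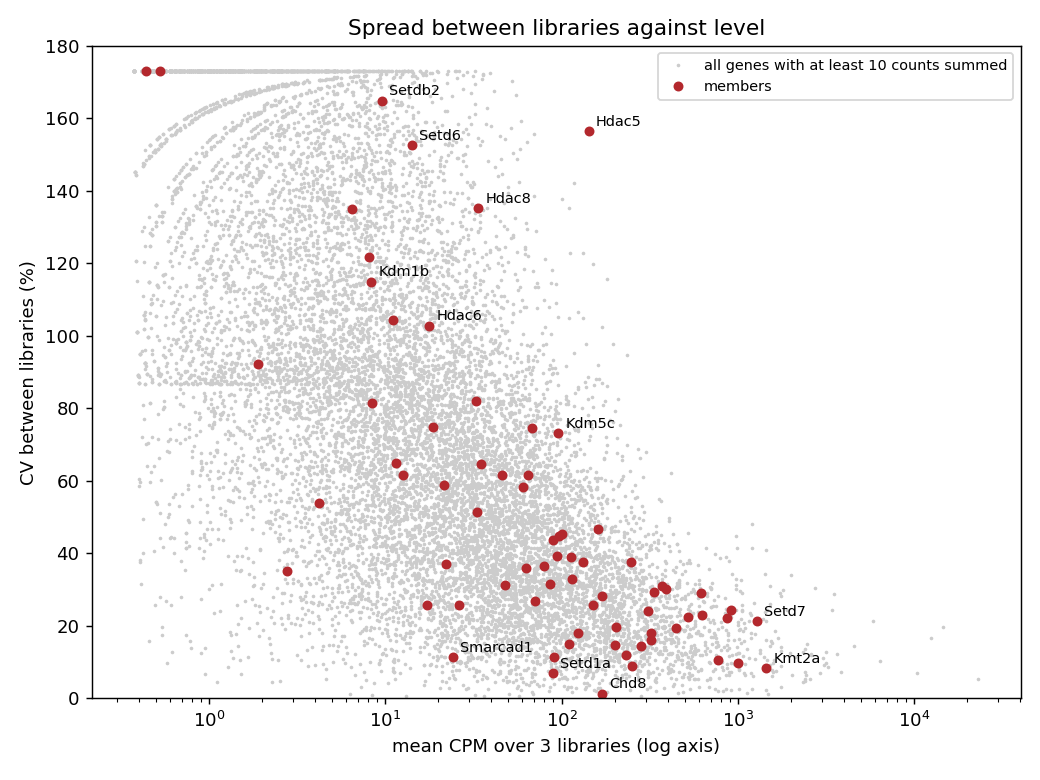
Coefficient of variation between the 3 libraries (%) against mean CPM (log axis) for members (red) and all genes with at least 10 counts summed (grey). Most members lie within the grey cloud, with Hdac5 (156%) far above and Chd8 (1.25%) at the bottom of genes of similar level.

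Between libraries, the members' log2(RPKM + 0.1) values had a Pearson r of 0.83 (replicates 1 and 2), 0.79 (1 and 3) and 0.86 (2 and 3) across the 77 genes, with Spearman rho of 0.86, 0.84 and 0.86, as a description across genes.

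Genes of the same complexes and pathways outside the symbol rule were mostly counted too. Of 106 such partner genes in 9 lists, 85 (80.2%) reached 10 CPM, beside 81.8% of the members, and their median was 8.26 RPKM. The highest genes of the lists were well covered in every library. Ash1l, an H3K36 methyltransferase, was at 58.5, 72.5 and 85.2 RPKM, Jmjd1c, a JmjC relative of Kdm3a, at 48.5, 65.2 and 71.6 RPKM, and Ncor1, the corepressor that activates Hdac3, at 39.4, 58.2 and 86.7 RPKM. Each of these 3 was lowest in replicate 1 and highest in replicate 3. Ncoa6, a subunit of the Kmt2c and Kmt2d complexes, was at 72.7, 38.7 and 59.1 RPKM, Atrx, a heterochromatin remodeler, at 46.5, 49.6 and 73.7 RPKM, and the acetyltransferase Ep300 at 64.5, 52.2 and 51.1 RPKM. The Polycomb cofactor Jarid2 was at 20.8, 28.4 and 27.0 RPKM, and Pbrm1, the subunit that defines the PBAF form, at 15.2, 24.4 and 21.1 RPKM.

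The lowest gene of several partner lists was hardly counted at all. Uhrf1, which maintains DNA methylation at replication, and Rcor2, a CoREST subunit, had no count in any library. Hells, a remodeler of dividing cells, had 0, 3 and 6 counts, Mina (Riox2) 0, 44 and 24, and Bcl11b, a BAF subunit of cortical and striatal neurons, 0, 1 and 35. Suv39h2, an H3K9 methyltransferase, had 38, 34 and 22 counts. Low members of the remaining lists were Wdr5, the core COMPASS subunit, at 1.77, 6.31 and 0.535 RPKM, the arginine methyltransferase Carm1 at 0.737, 1.59 and 4.87 RPKM, and the acetyltransferase Kat8 at 0.641, 0.589 and 2.22 RPKM. Wdr5 was thus lower than Kmt2a, an enzyme it serves, in every library.

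The libraries were not of a single cell type by their markers. Summed CPM ranged from 16689 to 24637 for 6 pan-neuronal genes, lowest in replicate 3, from 479 to 740 for 8 genes of glutamatergic deep nuclei neurons and from 406 to 945 for 5 genes of inhibitory neurons. The ranges were 3116 to 3642 for 6 granule cell genes, 2496 to 3647 for 6 Purkinje cell genes, 2890 to 3662 for 6 oligodendrocyte genes and 1662 to 2159 for 6 genes of astrocytes and Bergmann glia. Microglial genes summed to 19.8 to 35.9 CPM, where 3 of 6 were counted and C1qa, Aif1 and Trem2 had 0 counts in all 3 libraries. Endothelial genes summed to 29.9 to 70.5 CPM, where 4 of 5 were counted and Cldn5 was at 0. The part of these cell types in the levels of the chromatin genes was not tested.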

How the data were processed

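Ribosome-bound RNA of 3 immunopurified samples was sequenced, and the authors deposited 1 table of raw counts of reads per gene for each (32531 gene rows). The submitters' processing notes list mm10, STAR 2.0.0e and HTSeq, without their roles, and the annotation or strand setting of the counting was not given in the sources used here. Per the files' own summary rows, 50.2%, 44.1% and 44.7% of the reads with a gene, several genes or no feature fell in no feature in replicates 1, 2 and 3, and 1.77%, 1.94% and 1.88% in several genes. Reads aligned to several places were not counted, and all these rows were left out of library sizes. Without a stated strand setting, reads of overlapping genes on opposite strands cannot be told apart.

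Groups and replicate numbers come from the sample titles. CPM was computed with TMM library sizes (edgeR 4.0.16 in R 4.3.3). RPKM divides CPM by the union of annotated exons of GENCODE release M21, matched by symbol for 23891 rows (736 through an older symbol). Pairs were compared on log2(RPKM + 0.1), which understates differences of low genes, with scipy 1.17.1. Precision is that of 7622010 to 8842058 gene counts per library, and reads are not independent molecules, so the limit that a 0 sets (3 counts) is for counting error alone. Spread was tested over all genes with at least 10 counts in 2 libraries. Both tests were run on simulated data. For the quasi-likelihood test the simulated dispersion was smaller than that of these libraries, whose biological coefficient of variation by edgeR was 0.832. That check therefore does not show whether the test could call genes here. A gene was called with an adjusted p under 0.05. Alternatives were a pseudocount of 1, CPM, lengths of the longest coding transcript, DESeq2 1.42.0 size factors, other count minimums and leaving out each library.

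The members and lists were chosen with earlier results of these data known. Named genes are the 3 members of highest and 1 of lowest mean RPKM in each class, the genes of the 21 pairs, the 10 members of highest CPM in each library, members with a 0 in a library and at least 50 counts in another, and the highest and lowest gene of each partner list. A gene that this rule names is not reported here. Members outside this rule (such as Arid3a, Arid5a and Kdm5a) are named after their values were seen. Shared sequence was counted as words of 50 bases of the longest coding transcript that occur in transcripts of other genes. Promoter windows are from RefSeq (GRCm38.p6).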

Additional observations from a re-analysis of the deposited data

How the results depend on the processing

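The direction of the mean difference held for 21 of 21 pairs with a pseudocount of 1, with DESeq2 size factors and without replicate 1, and for 20 of 21 with each of CPM, coding transcript lengths, leaving out replicate 2 and leaving out replicate 3. The exceptions were Kdm5c minus Kdm5b (0.50), which was -0.72 on CPM, -0.15 with coding transcript lengths and -0.090 to 1.37 when a library was left out, and Smarca5 minus Smarca1 (0.29), which was -0.50 to 0.72 when a library was left out. The size moved by over 1.5 times for 8 pairs on CPM, 6 with coding transcript lengths, 3 with a pseudocount of 1, 0 with DESeq2 size factors, and 6, 6 and 7 without replicates 1, 2 and 3, and the cause was not tested. Kdm1a minus Kdm1b ranged from 1.46 to 3.76 and Kdm3b minus Kdm3a from 0.47 to 1.56 when a library was left out. The count of members at 10 CPM (63) was 62 to 64 when a library was left out, 68 at 5 CPM and 56 at 20 CPM. Members called variable by the Poisson test numbered 67 (95.7% of those tested, beside 96.5% of all genes tested). With a library left out they numbered 53 to 57 (79.1% to 86.4%, beside 80.5% to 82.2% of all genes tested). The quasi-likelihood dispersion of edgeR called 0 members and 0% of the genes (4 members and 477 genes where p was not adjusted). These counts are no result about the members. No paired analysis was possible because the labels give 1 group. Depth limits the genes under 10 counts: for Arid5a, Hdac10 and Arid3c a low level was not resolved.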

Other observations

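The 5 X-linked members (Kdm6a, Kdm5c, Hdac6, Hdac8 and Smarca1) did not move together between libraries. Kdm6a, Kdm5c, Hdac6 and Smarca1 were highest in replicate 2, with 3628, 1460, 322 and 511 counts, and Hdac8 was highest in replicate 3, with 669. These genes were grouped after their values were seen, and no test was made.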
